A study of Mus musculus with 30 samples.

Results

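The regions described here are binding sites of the transcription factor EBF1 that also held its partner E2A in mouse RAG1-/- pro-B cells. They were selected on the measured peaks themselves, in the authors' lists from chromatin immunoprecipitation sequencing (ChIP-seq): a site was an EBF1 peak that overlapped an E2A peak of the same cells by 1 bp or more and no peak of the input control. Of 1402 EBF1 peaks, 70 overlapped an input peak, and 653 of the other 1332 met the rule (49%). The remaining 679 EBF1 peaks had no E2A peak, and 11122 E2A peaks had neither an EBF1 nor an input peak. The shared sites covered 5.51% of the 11846 E2A peaks. Each ChIP-seq library was a single one, so shares of sites have no replicate check and no test. Their 95% intervals are exact binomial (Clopper-Pearson) and cover counting error over sites only.

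E2A and EBF1 act in sequence at the start of B cell development. E2A, a basic helix-loop-helix protein that binds E-boxes, helps to turn on the gene for EBF1, and EBF1 then opens and activates genes of the B lineage. Without either factor, development stops before commitment, at the pre-pro-B stage. Known shared targets include the genes for the surrogate light chain and for the signalling chain CD79A, which together let an early B cell test its first immunoglobulin heavy chain. FOXO1 works beside both factors in pro-B cells, and CTCF organises chromatin loops. Methylation of histone H3 at lysine 4 marks regulatory DNA (H3K4me1 and H3K4me2 at enhancers, H3K4me3 at promoters), acetylation at lysines 9 and 14 (H3K9/14ac) marks active chromatin, and H3K27me3 marks Polycomb repression.

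All cells were labelled as C57BL/6. EBF-/- pre-pro-B cells, which have E2A but no EBF1, and E2A-/- pre-pro-B cells had been grown on S17 stroma with IL-7, SCF and FLT3 ligand. RAG1-/- pro-B cells, which have both factors but cannot rearrange antigen receptor genes, had been enriched from femoral marrow by B220 and expanded for 10 d in IL-7 and SCF. Between these cultures, genotype and growth conditions differ together and cannot be told apart. ChIP-seq lists came from EBF-/- cells (E2A and 5 histone marks), RAG1-/- cells (E2A, EBF1, FOXO1, CTCF and the same marks) and cells without E2A that carried a retroviral E2A protein. That protein was either E47-ER, E47 fused to the estrogen receptor and switched on by tamoxifen for 1 or 6 h, or the truncated bHLH-ER. Cells with bHLH-ER were also given tamoxifen, for 6 h. Both proteins were expressed in E2A-/- pre-pro-B cells and in A12 cells, an E2A-/- line with the label of double-positive T cells. RNA of 2 samples each of E2A-/-, EBF-/- and RAG1-/- cells was measured on arrays, and nothing in the labels says that replicates were separate animals or cultures, so p-values measure the spread between these samples.

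On the arrays, the Ebf1 probe read 10.87 and 10.91 (normalised log2 intensity) in the EBF-/- samples, 12.55 and 12.38 in RAG1-/- and 6.94 and 5.38 in E2A-/- cells. Rag1 read 10.52 and 11.12 in RAG1-/- cells. The labels do not say whether these probes fall in the deleted parts, so neither signal checks a label. Between replicates, Pearson's r across 12671 genes, which are not independent of each other, was 0.977 (E2A-/-), 0.989 (EBF-/-) and 0.981 (RAG1-/-). E2A-/- replicate 1 stood apart at B-lineage genes near the shared sites. It had been hybridised on the same array as RAG1-/- replicate 1, in the other dye, and its levels at most of the largest rises lay between E2A-/- replicate 2 and the RAG1-/- samples. Counts and changes against E2A-/- cells are therefore given with and without that sample.

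The promoters of 5 genes named below are shown as examples. Each had a shared site within 5 kb of an array probe and was higher in RAG1-/- than in EBF-/- cells in both samples. Vpreb1 and Otub2, which met the same conditions, are not shown. Each sequence runs from 250 bases before to 50 bases after the start annotated by RefSeq on GRCm38.p6, 5′ to 3′ on the gene's strand. Peak positions are on mm8, so whether a peak covers these bases was not determined. Capitals mark matches on either strand to the palindrome that EBF1 prefers (TCCC, any 2 bases, then GGGA) or to the E-boxes CAGCTG and CACCTG, which E2A prefers (the latter reads CAGGTG on the other strand). A match is a description of the letters and no evidence of binding.
Vpreb3 (chr10:75948050-75948349, plus strand): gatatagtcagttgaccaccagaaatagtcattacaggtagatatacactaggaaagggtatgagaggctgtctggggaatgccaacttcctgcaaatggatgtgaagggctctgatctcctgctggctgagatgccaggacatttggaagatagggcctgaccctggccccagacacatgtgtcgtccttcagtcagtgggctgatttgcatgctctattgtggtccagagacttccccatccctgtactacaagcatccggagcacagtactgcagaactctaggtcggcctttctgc
Igll1 (chr16:16863936-16864235, minus strand): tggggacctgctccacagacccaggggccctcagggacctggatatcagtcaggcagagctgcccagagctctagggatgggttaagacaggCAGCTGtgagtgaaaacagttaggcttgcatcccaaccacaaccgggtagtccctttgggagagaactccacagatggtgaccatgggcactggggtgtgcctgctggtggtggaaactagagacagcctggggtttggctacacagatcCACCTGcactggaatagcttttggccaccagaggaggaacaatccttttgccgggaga
Cd79a (chr7:24897247-24897546, plus strand): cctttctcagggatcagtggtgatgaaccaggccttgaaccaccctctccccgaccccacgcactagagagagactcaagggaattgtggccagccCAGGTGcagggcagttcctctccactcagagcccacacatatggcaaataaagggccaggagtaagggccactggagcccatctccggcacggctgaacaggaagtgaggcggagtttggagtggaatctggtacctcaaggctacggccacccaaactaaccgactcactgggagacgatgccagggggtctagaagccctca
Cd22 (chr7:30878979-30879278, minus strand): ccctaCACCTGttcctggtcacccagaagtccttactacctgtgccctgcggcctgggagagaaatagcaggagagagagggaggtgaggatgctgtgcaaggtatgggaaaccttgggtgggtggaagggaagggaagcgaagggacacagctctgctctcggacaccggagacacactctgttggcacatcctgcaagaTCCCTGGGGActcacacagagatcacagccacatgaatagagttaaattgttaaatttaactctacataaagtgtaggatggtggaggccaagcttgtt
Tnfrsf13c (chr15:82224331-82224630, minus strand): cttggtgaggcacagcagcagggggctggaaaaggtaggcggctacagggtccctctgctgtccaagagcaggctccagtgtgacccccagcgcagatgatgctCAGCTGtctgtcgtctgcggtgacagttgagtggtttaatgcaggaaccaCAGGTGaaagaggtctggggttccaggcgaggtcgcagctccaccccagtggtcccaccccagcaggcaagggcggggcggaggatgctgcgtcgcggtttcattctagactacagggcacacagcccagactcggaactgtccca

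Only Cd22 of these 5 held the EBF1 palindrome, which began 49 bases before the start. Its promoter also held a CACCTG that began 245 bases before the start. Igll1 and Tnfrsf13c each held 1 CAGCTG and 1 CACCTG, and Cd79a held 1 CACCTG. The Vpreb3 window held neither of these E-boxes, but 5 matches to the general form CANNTG. Of the promoters not shown, that of Vpreb1 held 1 CACCTG, and 1 of the 3 annotated windows of Otub2 held 1 CAGCTG. The palindrome was present in 0.904% of all 32851 promoter windows of the table. Among 488 windows of 372 fitted genes with a shared site within 25 kb, 2.66% held it (13 windows). The E-boxes were about as frequent near shared sites as elsewhere: CAGCTG was in 18.4% against 16.3% of all windows, CACCTG in 19.1% against 20.2%, and CANNTG, which includes both, in 69.1% against 72.3%. No test was made of these shares.

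At the shared sites the peaks of the factors lay close together. Both lists have peaks 200 bp wide, and the median distance between their centres was 32 bp (quartiles 15 and 60, largest 196). In 449 of 653 sites the centres were within 50 bp, and in 212 within 20 bp. Only 5 sites overlapped by 20 bp or less, with a median EBF1 peak value of 10. Just outside the rule, 36 EBF1 peaks had an E2A centre at least 200 but under 400 bp away, again with a median value of 10.

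The values are those of the authors' lists, whose scale (raw or scaled tag counts) is not stated, and they chose the members, so they are given as a description. EBF1 peak values at shared sites ran from 9 to 50, with a median of 12, against 11 at EBF1 peaks without E2A. E2A peak values ran from 9 to 128, with a median of 22 at shared sites and 13 at E2A peaks without EBF1. The share of EBF1 peaks that met an E2A peak was higher in each higher class of EBF1 value. It was 34.4% (29.1 to 40) of 308 peaks at value 9, 45.3% of 397 peaks at 10 or 11, 54.8% of 367 peaks at 12 to 15, 59.6% of 146 peaks at 16 to 19, and 69.3% (60 to 77.6) of 114 peaks at 20 to 50.

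**Figure D1:**
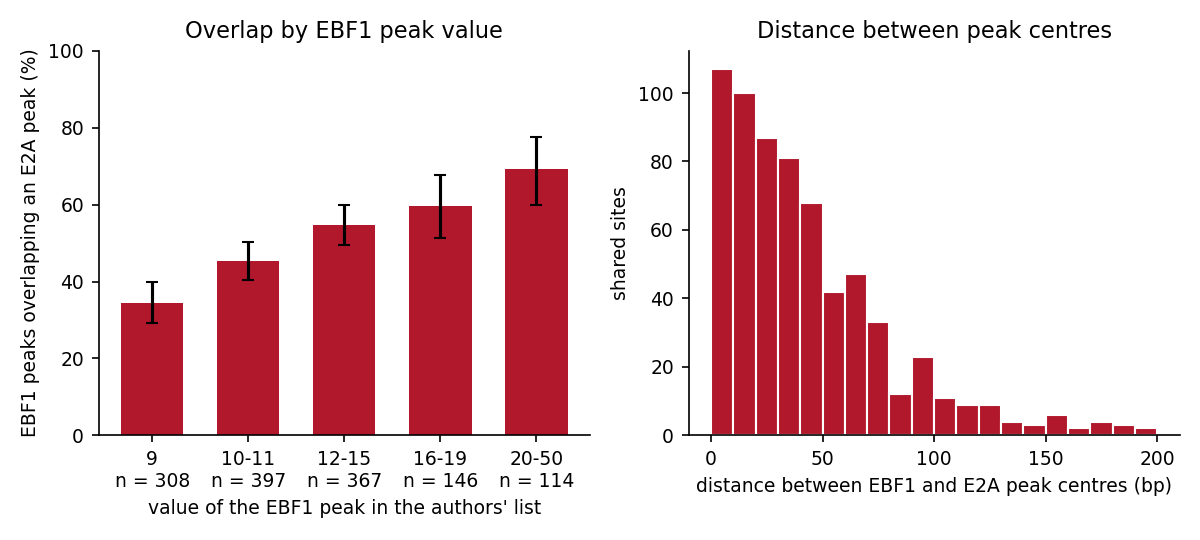
Left, the share of EBF1 peaks that overlapped an E2A peak, by the EBF1 peak's value in the authors' list (bars, with exact 95% binomial intervals); the share was 34.4% in the lowest class and 69.3% in the highest. Right, the number of shared sites by distance between the EBF1 and E2A peak centres in bins of 10 bp, with a median of 32 bp.

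The shared sites lay on all 19 autosomes, with 63 on chromosome 11 and 57 on chromosome 7, and none of the 4 EBF1 peaks on X or Y met the rule. Neighbouring sites were far apart, with a median gap of 1282041 bp. At 7 places, 3 sites lay within 100 kb of each other. One lay near Tbc1d16, 1 at Cep250 and Gdf5 (3 sites in 17.4 kb), 1 near Ehd2 and Nop53, 1 near Emsy, 1 near Stard10 and 1 near Fam53b and Lhpp, and the last had no named probe within 25 kb. A pair of sites 11.7 kb apart lay at Vpreb3, Chchd10 and Mmp11.

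The 10 sites of highest EBF1 value did not look alike in other maps. The site 3.23 kb from a probe of Ciita, the master regulator of MHC class II genes (chr16:10436493-10436692, EBF1 value 37, E2A value 9), overlapped a CTCF peak and no histone mark peak. The site 6.92 kb from a probe of Dab2ip and 13.8 kb from Ttll11 (chr2:35559737-35559936, EBF1 value 36, E2A value 67) overlapped H3K4me2, H3K4me3 and H3K9/14ac peaks in RAG1-/- cells and none in EBF-/- cells. The site 10.2 kb from Tmem108 (chr9:103347258-103347457, values 34 and 24) had H3K4me2, H3K4me3 and FOXO1 peaks in RAG1-/- cells. The site 18.7 kb from Dlk1 (chr12:109889280-109889479, values 34 and 26) had no mark in either cell type but held E47-ER in all 3 of its lists. None of these 10 sites overlapped an E2A or histone mark peak of EBF-/- cells. With no mm8 annotation at hand, positions are given relative to array probes, and whether a site is exonic or intronic was not determined.

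Active histone marks covered more of the shared sites in RAG1-/- cells than in EBF-/- cells, and H3K4me2 showed it most broadly. H3K4me2 peaks overlapped 147 shared sites in EBF-/- cells (22.5%, 19.4 to 25.9) and 325 in RAG1-/- cells (49.8%, 45.9 to 53.7). Over all 1332 EBF1 peaks the shares were 21.3% and 44.4%. Both H3K4me2 lists were of like size, 27025 and 26549 peaks. Site by site, 109 had the mark in both cell types, 216 only in RAG1-/- cells, 38 only in EBF-/- cells, and 290 in neither. Of the 254 sites marked in just 1 cell type, 85% (80 to 89.2) were marked in RAG1-/- cells. The same share was 82.7% (76.7 to 87.7) at EBF1 sites without E2A, 74.1% (72.5 to 75.6) at E2A sites without EBF1 and 48.8% over all H3K4me2 peaks of both lists. The interval at shared sites lay above that at E2A sites without EBF1 and overlapped that at EBF1 sites without E2A.

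H3K4me1 was the rarer enhancer mark at these sites. It overlapped 32 shared sites in EBF-/- cells (4.9%) and 164 in RAG1-/- cells (25.1%), against 4.28% and 26.6% of all EBF1 peaks. Here the RAG1-/- list was also longer, 23054 against 7544 peaks, and 81% of all H3K4me1 peaks found in just 1 list were in the RAG1-/- list. The corresponding share at shared sites was 88.4% (82.6 to 92.8) of 172. It was 93.2% (88.6 to 96.3) at EBF1 sites without E2A and 90.3% (89.2 to 91.4) at E2A sites without EBF1. The interval at shared sites overlapped both. How far the length of the list moves these shares was not tested. In the lists of cells with retroviral E2A proteins, H3K4me1 overlapped few shared sites. The shares were 8.88% in E2A-/- cells with bHLH-ER at 6 h, 8.42% with E47-ER at 1 h and 7.2% with E47-ER at 6 h (8.41%, 7.96% and 5.78% of all EBF1 peaks). In A12 cells they were 6.43% with bHLH-ER and 4.9% with E47-ER (4.8% and 3.75%).

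Promoter-type marks were less common. H3K4me3 overlapped 28 shared sites in EBF-/- cells (4.29%, 2.87 to 6.14) and 99 in RAG1-/- cells (15.2%, 12.5 to 18.1), against 9.76% and 18.8% of all EBF1 peaks. At EBF1 sites without E2A it overlapped 15% and 22.4%, so shared sites carried it less often, above all in EBF-/- cells. The RAG1-/- list again held more peaks (13205 against 9064), and 92.8% of the H3K4me3 peaks found in just 1 list were in it, the same as the 92.8% of 83 shared sites. With only the peaks at or above each list's median value, the share at shared sites was 61.5%. H3K9/14ac differed least, with 74 sites in EBF-/- (11.3%) and 102 in RAG1-/- cells (15.6%), against 15.1% and 18.5% of all EBF1 peaks. With the peaks at or above each list's median its direction turned, since 27.8% rather than 64% of the sites marked in 1 cell type were then marked in RAG1-/- cells.

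H3K27me3 overlapped 0 of 653 shared sites in either cell type, which allows a share of up to 0.563% (upper end of the exact interval). These lists were short (1311 and 2130 peaks), and 0.0751% and 0.15% of all EBF1 peaks overlapped them. Counting the 4 active marks together, 178 shared sites (27.3%) had at least 1 in EBF-/- cells and 407 (62.3%) in RAG1-/- cells, where 177 sites carried 2 marks and 50 carried 3 or 4. In RAG1-/- cells 246 shared sites (37.7%) overlapped none of them. The other classes were similar. At EBF1 sites without E2A, 29.7% had at least 1 active mark in EBF-/- and 58.6% in RAG1-/- cells. At E2A sites without EBF1 the shares were 37.8% and 60.7%.

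**Figure D2:**
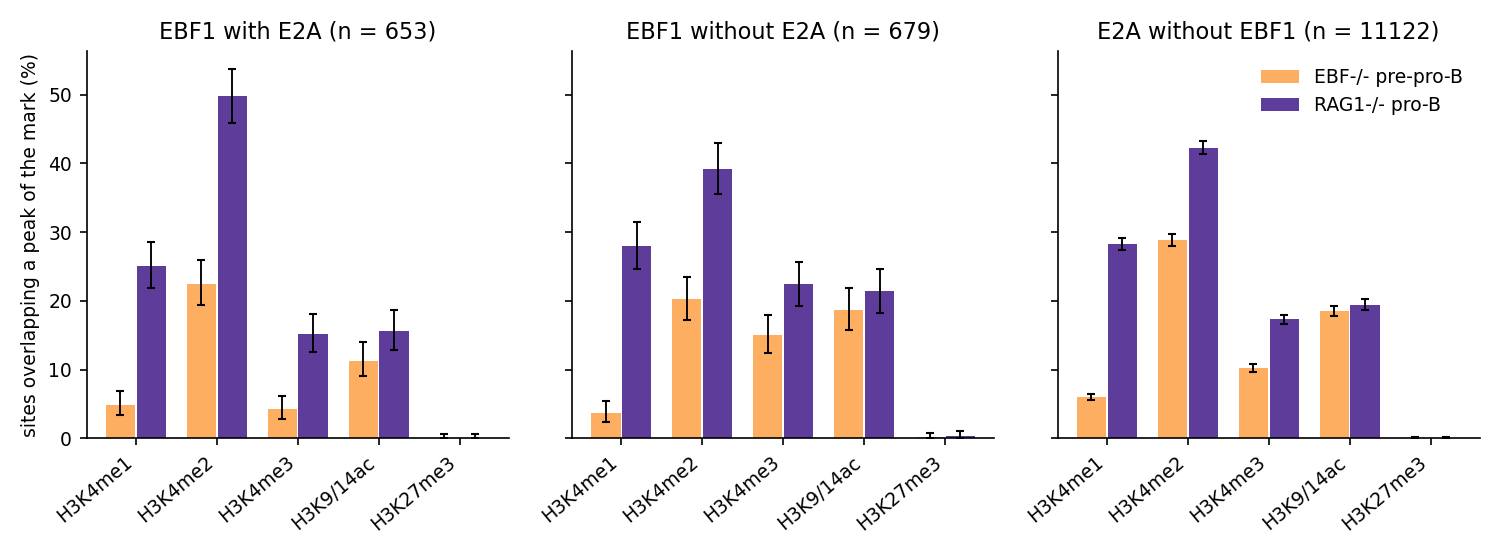
The share of sites that overlapped a peak of each of 5 histone marks in EBF-/- (orange) and RAG1-/- cells (purple), for EBF1 sites with E2A, EBF1 sites without E2A and E2A sites without EBF1 (exact 95% binomial intervals, 1 library per bar). At EBF1 sites with E2A, H3K4me2 stood at 22.5% and 49.8%, and H3K27me3 at 0 in both.

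E2A peaks were uncommon at these sites in cells without EBF1. In EBF-/- cells, which have E2A, 70 of the 653 shared sites overlapped an E2A peak (10.7%, 8.45 to 13.3), against 6.31% of all EBF1 peaks and 17.2% (16.5 to 17.9) of E2A sites without EBF1. The EBF-/- list was the shorter of the pair, 4531 against 11846 peaks. E47-ER in E2A-/- cells met 172 shared sites at 1 h (26.3%) and 134 at 6 h (20.5%), and E47-ER in A12 T cells met 116 (17.8%), with 15.9%, 11.6% and 9.76% over all EBF1 peaks. At E2A sites without EBF1 these shares were higher, at 37.9%, 26.7% and 25.6%. In all, 426 shared sites (65.2%) had an E2A peak in RAG1-/- cells and in none of the other 4 E2A lists, and 29 had one in every list.

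Shared sites that held E2A in both EBF-/- and RAG1-/- cells differed from the rest in several maps. Of these 70 sites, 65.7% overlapped E47-ER at 6 h in E2A-/- cells, 48.6% H3K4me2 in EBF-/- cells and 17.1% FOXO1. At the other 583 sites the shares were 15.1%, 19.4% and 8.92%. For FOXO1 the intervals overlapped (9.18 to 28 and 6.73 to 11.5). In RAG1-/- cells the 70 sites had H3K4me1 less often (15.7% against 26.2%), with overlapping intervals, and H3K4me2 in 44.3% against 50.4%. CTCF was at 8.57% and 8.58%. Where H3K4me2 was present only in RAG1-/- cells, E2A was present in EBF-/- cells at 1.39% of 216 sites, against 25.7% of the 109 sites with H3K4me2 in both. It was at 15.8% of the 38 sites with H3K4me2 only in EBF-/- cells and at 11.4% of the 290 with it in neither. These E2A and H3K4me2 lists come from the same EBF-/- cells but from separate libraries.

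FOXO1 and CTCF divided the EBF1 sites in opposite ways. FOXO1 peaks overlapped 64 shared sites (9.8%, 7.63 to 12.3), 2.06% (1.13 to 3.44) of EBF1 sites without E2A and 5.36% (4.95 to 5.79) of E2A sites without EBF1, with 5.86% over all EBF1 peaks. CTCF peaks overlapped 56 shared sites (8.58%, 6.54 to 11), 21.2% (18.2 to 24.5) of EBF1 sites without E2A and 12.1% (11.5 to 12.8) of E2A sites without EBF1, with 15% over all EBF1 peaks. The intervals of shared sites overlapped neither of the other classes for either factor. When a peak within 1 kb counted, CTCF was at 19.4% of shared sites, 30.6% of EBF1 sites without E2A and 20.3% of E2A sites without EBF1, so that shared sites no longer stood apart from the last. Of the sites closest to the genes named below, those at Car13, Smtnl2 and Bst1 overlapped a FOXO1 peak. So did the site 94.6 kb from a Foxo1 probe, whose nearest probe was of Drr1 at 18.5 kb. The others did not. The 64 sites with FOXO1 had H3K4me1 in RAG1-/- cells less often, in 9.38% against 26.8% of the other 589. They had H3K4me2 in 40.6% against 50.8%.

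**Figure D3:**
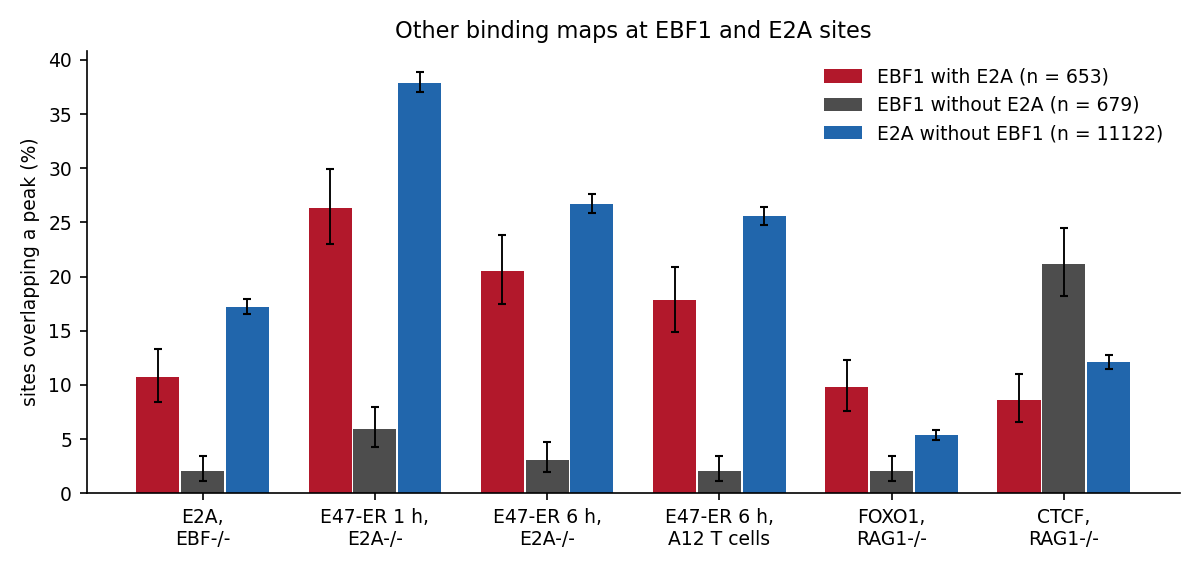
The share of sites that overlapped a peak in 6 other binding maps, for EBF1 sites with E2A (red), EBF1 sites without E2A (grey) and E2A sites without EBF1 (blue), with exact 95% binomial intervals and 1 library per map. FOXO1 was at 9.8%, 2.06% and 5.36% of these classes and CTCF at 8.58%, 21.2% and 12.1%.

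Shared sites with the highest E2A peak values had H3K4me1 least often. H3K4me1 in RAG1-/- cells overlapped 32.2% (24.7 to 40.4) of 146 sites with E2A values of 9 to 12, 35.4% of 175 sites at 13 to 21, 24.4% of 168 sites at 22 to 35, and 8.54% (4.75 to 13.9) of 164 sites at 36 to 128. H3K4me2 overlapped 52.1%, 60%, 43.5% and 43.3% in the same classes. When a mark peak within 1 kb counted, H3K4me1 was at 45.2%, 51.4%, 42.3% and 28%. Sites with E2A alone also had less H3K4me1 in the highest class, 14% of 950 sites against 30.1% of 5119 in the lowest. FOXO1 and E47-ER ran the other way: FOXO1 overlapped 4.11%, 6.29%, 8.33% and 20.1% of shared sites in these classes, and E47-ER at 1 h 4.79%, 16.6%, 27.4% and 54.9%. CTCF went down with the E2A value, from 14.4% and 9.14% to 5.95% and 5.49%. These classes were drawn after the values were seen, and no test was made.

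Genes close to the shared sites were more often higher in RAG1-/- than in EBF-/- cells than genes at large. A gene was counted as near when an array probe lay within 25 kb of the centre of the EBF1 peak. Most probes sit near the end of a gene, so sites at the start of a long gene could not be assigned. Of 586 genes named on the array near a shared site, 493 passed the filter on dim probes and entered the fit, which means that genes dim in all groups do not count here. Of these 493, 172 were higher in RAG1-/- cells (34.9%) and 91 lower (18.5%) by limma at an adjusted p under 0.05, against 20.6% and 23.3% of all 12671 genes. The median log2 change was 0.20 near shared sites and 0.03 over all genes. Without EBF-/- replicate 1 the counts were 90 and 55 (18.3% higher, against 8.48% of all genes), and without EBF-/- replicate 2 they were 107 and 52 (21.7%, against 9.2%). Near EBF1 sites without E2A, 23.3% of 584 genes were higher and 26.7% lower, with a median of 0.00. Near E2A sites without EBF1, 23.3% of 5257 genes were higher and 23.9% lower, with a median of 0.03. A gene can be near sites of more than 1 class: 45 fitted genes were near both kinds of EBF1 site, and 18 of these were higher (40%).

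The excess of higher genes narrowed with distance. Within 10 kb, 37.9% of 211 genes were higher and 15.6% lower, with a median of 0.31. Within 100 kb, 27.2% of 1510 were higher and 21.2% lower. The share also differed with the peaks' values. Near sites at or above the median EBF1 value, 39.9% of 283 genes were higher, and near the weaker sites 29.2% of 219. By E2A value the shares were 26.7% of 135 genes at 9 to 12, 32.6% of 129 at 13 to 21, 38.3% of 107 at 22 to 35 and 42.5% of 146 at 36 to 128, with 23%, 18.6%, 15.9% and 16.4% lower. Genes near sites that gained H3K4me2 were not more often higher: 32% of 125 genes near sites with H3K4me2 only in RAG1-/- cells were higher, and 34.8% of 270 near sites with it in neither. Near the few sites with H3K4me2 only in EBF-/- cells, 51.6% of 31 genes were higher. Near sites with FOXO1 the share was 42.6% of 54 genes, and near sites that held E2A in EBF-/- cells 24.6% of 65.

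**Figure D4:**
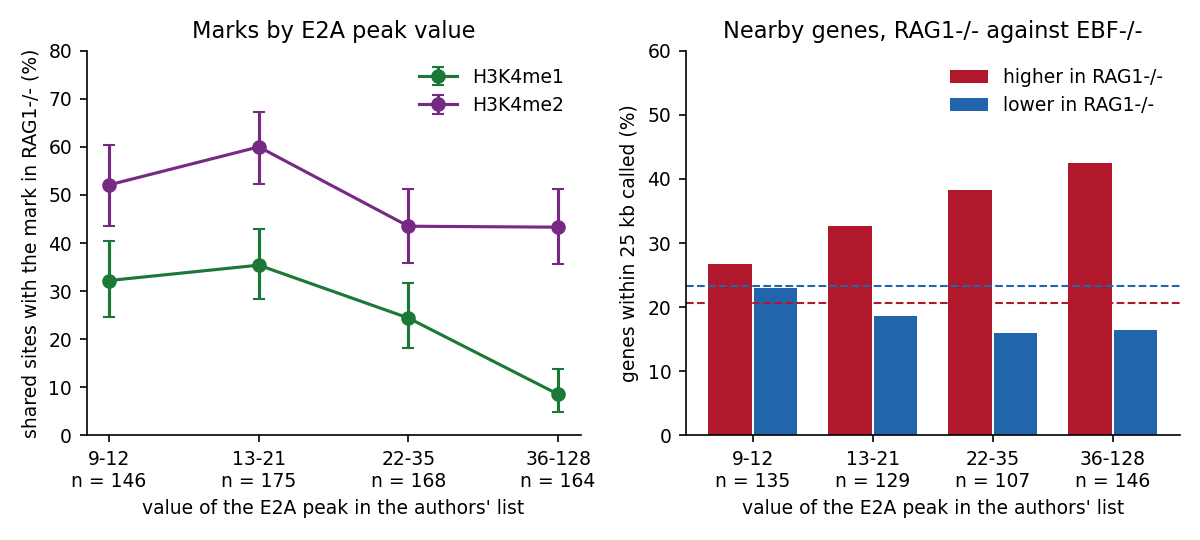
Shared sites by the value of their E2A peak in the authors' list. Left, the share of sites that overlapped H3K4me1 (green) and H3K4me2 (purple) in RAG1-/- cells, with exact 95% binomial intervals, where H3K4me1 went from 32.2% in the lowest class to 8.54% in the highest. Right, the share of fitted genes within 25 kb that were higher (red) or lower (blue) in RAG1-/- than in EBF-/- cells, with the shares over all genes as dashed lines (20.6% and 23.3%); a gene near sites of several classes counts in each.

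The other comparisons share samples with the first and are given beside it. Against E2A-/- cells, 192 genes near shared sites were higher in RAG1-/- cells (38.9%) and 99 lower (20.1%), with 22.5% and 23.2% over all genes. Without E2A-/- replicate 1, 29.4% were higher and 12.8% lower (63 genes), with 14.8% and 14.7% over all genes, and without E2A-/- replicate 2 the lower genes numbered 56. Between the pre-pro-B cultures, 80 genes were higher in EBF-/- than in E2A-/- cells (16.2%) and 56 lower (11.4%), with 12.7% and 11.2% over all genes. These counts depended on single samples: leaving out E2A-/- replicate 1 gave 32 and 18, and leaving out its replicate 2 gave 26 and 33. The same for EBF-/- replicates 1 and 2 gave 17 and 15, and 13 and 15. Without RAG1-/- replicate 1 or 2, whose spread enters the same fit, 105 and 106 genes were lower.

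Of the 172 higher genes, 110 rose by more than 2-fold and 38 by more than 16-fold. Of the 91 lower genes, 61 fell by more than 2-fold and 4 by more than 16-fold. Both RAG1-/- samples lay beyond both EBF-/- samples in every one of these genes, as they did in 74.8% of all genes. The corresponding share of all genes was 74.2% for RAG1-/- against E2A-/- and 68.3% for EBF-/- against E2A-/- cells. In 29 of the higher and 3 of the lower genes no probe was well above background in the low group, and such a change is given only as a bound, written as at least N-fold. For the bound, each dim sample counted at its own signal or at the lowest signal well above background on its array, whichever was higher. SE is the standard error of a log2 change (2 samples per group), and the fit pools the spread of all 3 groups. In the sentences below, the levels are normalised log2 intensities of replicates 1 and 2, and distances run from the site's centre to the nearest probe. At Vpreb3, Igll1, Bst1, Car2 and Id3 only 1 EBF-/- sample, and at Dlk1 and Paqr5 only 1 RAG1-/- sample, was well above background. Without the filter on dim probes the calls of Vpreb3, Bst1, Cd22, Dlk1, Spib and Tcf3 in RAG1-/- against EBF-/- cells ended. Of the 15 largest rises within 25 kb 14 are named, with the 8 largest falls and the other genes of the B-lineage lists that had a shared site within 100 kb.

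Genes of the pre-B cell receptor were among the largest rises. Vpreb3, which encodes a protein that binds immunoglobulin heavy chains in early B cells, read 17.72 and 17.42 in RAG1-/- cells, 5.44 and 5.56 in EBF-/-, and 14.34 and 3.84 in E2A-/- cells. The RAG1-/- samples stood far above both EBF-/- samples, 1 of which was not well above background, and the E2A-/- samples were 1 high and 1 low. The change was 12.24 (SE 2.96, limma adjusted p = 0.0305), and it ended under several alternatives. Without RAG1-/- replicate 1 it was 9.38, without EBF-/- replicate 1 9.53 and without EBF-/- replicate 2 14.86, none past the threshold. Its site (chr10:75393344-75393543, EBF1 value 10, E2A value 50) lay 0.177 kb from the probe and overlapped no histone mark peak of RAG1-/- or EBF-/- cells, though H3K4me1 peaks of E2A-/- cells with bHLH-ER and E47-ER covered it.

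Igll1 and Vpreb1, which encode the surrogate light chain, had the same closest site (chr16:16777646-16777845, EBF1 value 17, E2A value 83), at 1.97 and 4.31 kb from their probes. Igll1 read 15.94 and 15.79 in RAG1-/-, 5.24 and 5.42 in EBF-/-, and 11.13 and 4.33 in E2A-/- cells, a change of 10.65 over EBF-/- cells (SE 1.93, limma adjusted p = 0.0136). Vpreb1 read 18.60 and 18.44 in RAG1-/-, 9.12 and 9.03 in EBF-/-, and 12.13 and 9.04 in E2A-/- cells, a change of 9.49 (SE 0.87, adjusted p = 0.00236). In both genes the RAG1-/- samples did not overlap either other group, and E2A-/- replicate 1 was the higher of its pair. Without EBF-/- replicate 1 the Igll1 change was 8.83 and no longer past the threshold. The site overlapped no mark or factor peak other than E47-ER at 1 and 6 h in E2A-/- cells.

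Cd79a, the signalling chain that carries the receptor's activation motif, was not well above background in any EBF-/- sample. It read 10.44 and 10.21 in RAG1-/-, 3.12 and 3.11 in EBF-/-, and 5.60 and 3.15 in E2A-/- cells, at least 24.1-fold higher in RAG1-/- than in EBF-/- cells (limma adjusted p = 0.00339). The EBF1 and E2A centres at its site (chr7:24605988-24606187, EBF1 value 12, E2A value 59) were 3 bp apart and 2.14 kb from the probe, and no other list had a peak there. Pik3ap1, an adaptor that links the receptor to phosphoinositide 3-kinase, did not pass the test. It read 11.82 and 10.93 in RAG1-/- and 10.63 and 10.39 in EBF-/- cells, with an adjusted p of 0.0884. Its site, 82.9 kb away, overlapped H3K4me2 and H3K9/14ac in EBF-/- cells and no mark in RAG1-/- cells. Without RAG1-/- replicate 2 it passed, at a change of 1.42.

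Surface genes of B cells were likewise higher. Cd22, an inhibitory receptor that binds sialic acid, read 11.02 and 9.23 in RAG1-/-, 2.90 and 4.59 in EBF-/-, and 6.31 and 2.90 in E2A-/- cells, at least 20.9-fold higher in RAG1-/- than in EBF-/- cells (limma adjusted p = 0.025). Its call ended without RAG1-/- replicate 1 (5.08) and without EBF-/- replicate 1 (5.16). Its promoter, printed above, holds the EBF1 palindrome, and its site (chr7:30587706-30587905, both values 20), 2.26 kb from the probe, overlapped H3K4me2 and H3K4me3 only in RAG1-/- cells.

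Tnfrsf13c, the receptor for the survival factor BAFF, read 13.23 and 12.56 in RAG1-/-, 8.20 and 7.99 in EBF-/-, and 8.73 and 8.73 in E2A-/- cells. The 4 EBF-/- and E2A-/- samples lay between 7.99 and 8.73, and RAG1-/- cells were 27.9-fold above EBF-/- cells (limma adjusted p = 0.000735). Its site (chr15:82046239-82046438, EBF1 value 17, E2A value 11) overlapped H3K4me2 only in RAG1-/- cells. Bst1 and Cd38, neighbouring genes for enzymes that make cyclic ADP-ribose, had 1 site in common (chr5:44112797-44112996, EBF1 value 11, E2A value 47), at 17.6 and 83.1 kb. This site held E2A in EBF-/- cells and FOXO1. Bst1 read 14.48 and 14.00 in RAG1-/- and 6.34 and 6.01 in EBF-/- cells (286-fold, limma adjusted p = 0.0219), and Cd38 9.82 and 9.89 against 3.21 and 3.22 (at least 17.4-fold, adjusted p = 0.00146). The Bst1 call ended without RAG1-/- replicate 1 (6.22) and without EBF-/- replicate 1 (6.84).

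Of the transcription factor genes, Foxo1, Id3, Spib and Tcf3 had a shared site within 100 kb, and all 4 were higher. Foxo1 read 13.94 and 13.97 in RAG1-/-, 8.41 and 8.40 in EBF-/-, and 8.60 and 7.02 in E2A-/- cells, 47.5-fold above EBF-/- cells (limma adjusted p = 0.00175). Its site, 94.6 kb away (chr3:52531796-52531995, EBF1 value 12), had an E2A value of 102, a FOXO1 peak and E47-ER in all 3 of its lists. It overlapped H3K4me2 in EBF-/- cells and no mark in RAG1-/- cells. The EBF1 and E2A peaks there overlapped by only 42 bp, with centres 158 bp apart. Id3, which encodes an inhibitor of E2A proteins, read 12.09 and 12.25 in RAG1-/-, 5.80 and 6.17 in EBF-/-, and 8.33 and 6.68 in E2A-/- cells. RAG1-/- cells were 74.1-fold above EBF-/- cells (limma adjusted p = 0.00197). The Id3 site, 33.2 kb away and 17.2 kb from a probe of E2f2, also held E2A in EBF-/- cells. Its EBF1 and E2A peaks overlapped by only 17 bp, with centres 183 bp apart. Neither the Foxo1 nor the Id3 site would count if centres had to lie within 100 bp.

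Tcf3, the gene of E2A itself and thus the one disrupted in E2A-/- cells, had a site 80.4 kb away. It read 15.04 and 14.73 in RAG1-/-, 13.42 and 13.41 in EBF-/-, and 10.80 and 9.45 in E2A-/- cells, 2.82-fold higher in RAG1-/- than in EBF-/- cells (limma adjusted p = 0.047) and 9.67-fold higher in EBF-/- than in E2A-/- cells (adjusted p = 0.0113). The second difference was 16.3-fold without E2A-/- replicate 1 and 5.82-fold without E2A-/- replicate 2, and it did not pass without EBF-/- replicate 2 (8.05-fold). Another Tcf3 probe read 12.66 and 12.64 in RAG1-/-, 10.80 and 11.13 in EBF-/-, and 10.45 and 10.35 in E2A-/- cells. On that probe the EBF-/- and E2A-/- samples lay much closer together. The labels do not say whether either probe falls in the deleted part of the gene. The nearest probe to the Tcf3 site was of Reep6, at 6.63 kb. This site carried H3K4me2 in both EBF-/- and RAG1-/- cells, and H3K4me1 and H3K4me3 only in the latter. Spib, a factor of the PU.1 family, read 14.97 and 14.35 in RAG1-/-, 10.47 and 10.70 in EBF-/-, and 11.50 and 7.90 in E2A-/- cells (17.6-fold over EBF-/-, adjusted p = 0.0415). The Spib site lay 21.7 kb from its probe and 1.97 kb from a probe of Nr1h2. It carried H3K4me2, H3K4me3 and H3K9/14ac in both cell types. Which gene the marks at these sites belong to was not tested. The Tcf3 and Spib calls against EBF-/- cells ended without RAG1-/- replicate 1 (0.99 and 2.94), without EBF-/- replicate 1 (1.23 and 3.23) and without EBF-/- replicate 2 (1.75 and 5.01).

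Cplx2, a known EBF1 target whose product clamps vesicle fusion, read 15.33 and 15.58 in RAG1-/-, 3.11 and 4.10 in EBF-/-, and 10.35 and 3.10 in E2A-/- cells. This probe was not well above background in either EBF-/- sample, so RAG1-/- cells were at least 844-fold above EBF-/- cells (limma adjusted p = 0.013). Another Cplx2 probe, well above background in 1 EBF-/- sample, read 13.01 and 12.83 against 5.61 and 6.22. The site lay 56.1 kb away (E2A value 65) and overlapped H3K4me2 only in RAG1-/- cells. The call ended without EBF-/- replicate 1.

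Several genes with no place in the B-lineage lists rose as steeply. Carbonic anhydrase genes Car13 and Car2, which lie on the same stretch of chromosome 3, had separate sites at 18.1 and 23.5 kb. Car13 read 12.03 and 12.36 in RAG1-/- and 3.29 and 3.35 in EBF-/- cells (at least 88-fold, limma adjusted p = 0.00336), and Car2 13.71 and 14.36 against 6.50 and 6.41 (203-fold, adjusted p = 0.0175). Ttll11, a tubulin-modifying enzyme beside the strong site at Dab2ip, read 11.99 and 12.35 against 3.28 and 3.32 (at least 86.3-fold). B3gnt8, a glycosyltransferase, read 12.59 and 13.07 in RAG1-/-, 6.33 and 5.89 in EBF-/-, and 9.15 and 7.42 in E2A-/- cells, all well above background (107-fold over EBF-/-, adjusted p = 0.000868), with a site at 7.59 kb that held E47-ER in all 3 lists. Tenm4, a transmembrane teneurin, read 11.19 and 11.12 in RAG1-/- and between 3.88 and 4.65 in the other 4 samples (at least 42.8-fold, adjusted p = 0.000526). Another Tenm4 probe read 11.33 and 11.25 in RAG1-/-, 3.03 and 3.00 in EBF-/-, and 7.25 and 3.04 in E2A-/- cells. Scd1, which desaturates fatty acids, Otub2, a deubiquitinase, and Smtnl2 were at least 149-fold, 81-fold and 96.7-fold higher in RAG1-/- than in EBF-/- cells. The Car2 and Otub2 calls ended without RAG1-/- replicate 1 (6.46 and 7.39) and without EBF-/- replicate 1 (6.04 and 6.68).

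The sites at the 15 largest rises had stronger E2A peaks and fewer marks than shared sites in general. Over their 14 sites the E2A value had a median of 46 (11 to 83), against 22 over all shared sites, and the EBF1 value a median of 14 against 12. In RAG1-/- cells 3 of the 14 sites overlapped an active mark (21.4%), those at Car13, Ttll11 and Cd22, against 62.3% of all shared sites. At the 8 sites of the largest falls the count was 5. These genes were chosen for their change, so the counts describe them and were not tested.

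**Figure D5:**
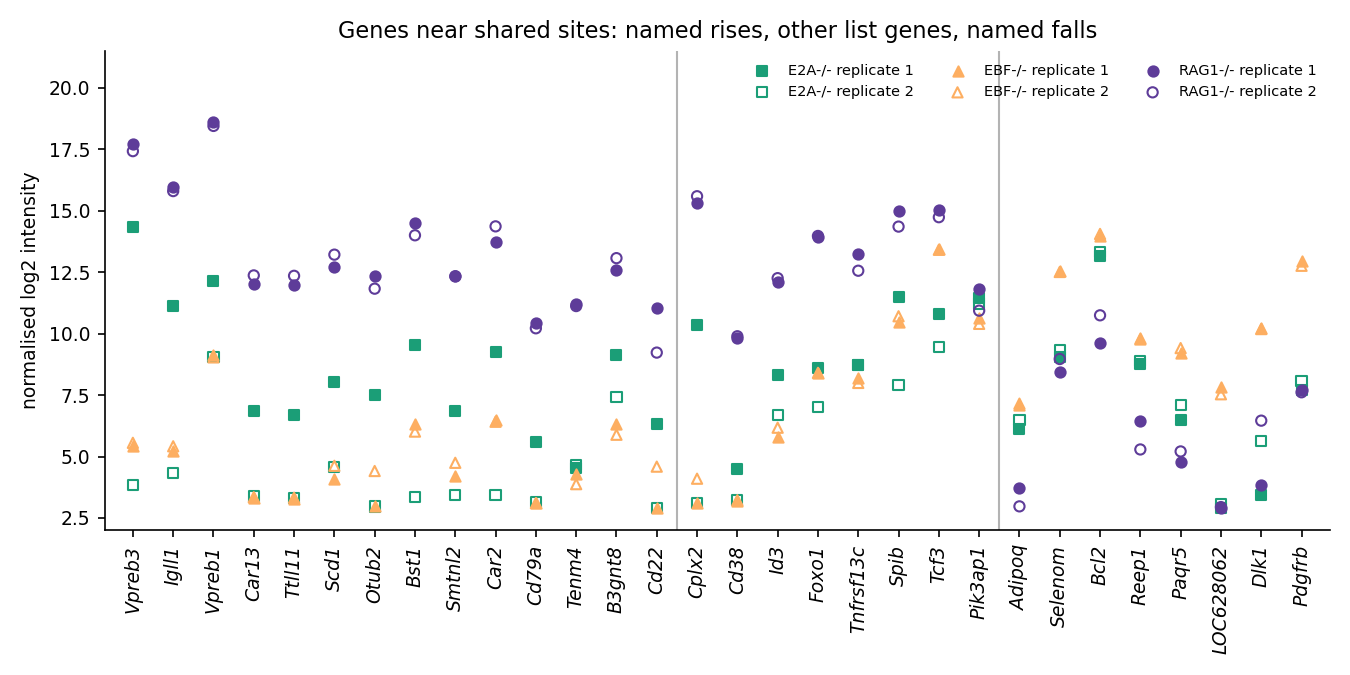
Normalised log2 intensity of each of the 6 RNA samples (filled symbols replicate 1, open symbols replicate 2) for named genes with a shared site: 14 of the 15 largest rises within 25 kb, 8 further genes of the B-lineage lists within 100 kb and the 8 largest falls within 25 kb. RAG1-/- samples (circles) lie above both EBF-/- samples (triangles) at every gene left of the second line, and E2A-/- replicate 1 (filled squares) lies above replicate 2 at most of the rises.

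The largest falls were of other kinds of genes. Pdgfrb, the platelet-derived growth factor receptor of mesenchymal cells, read 7.69 and 7.61 in RAG1-/-, 12.96 and 12.76 in EBF-/-, and 7.71 and 8.07 in E2A-/- cells. It was thus high in the EBF-/- samples alone, 37.1-fold above RAG1-/- cells (limma adjusted p = 0.000452) and 31.4-fold above E2A-/- cells (adjusted p = 0.0022, 27-fold without E2A-/- replicate 1). Both pre-pro-B cultures were grown on stroma, and the part of stromal cells in this signal was not tested. The Pdgfrb site, 7.07 kb away, overlapped H3K4me1 only in RAG1-/- cells. Dlk1, a Notch-related protein, read 3.85 and 6.46 in RAG1-/-, 10.22 and 10.18 in EBF-/-, and 3.45 and 5.64 in E2A-/- cells (34.3-fold lower in RAG1-/- than in EBF-/- cells, adjusted p = 0.0265), a call that ended without either EBF-/- sample (changes of -5.16 without replicate 1 and -5.04 without replicate 2). Selenom, a selenoprotein of the endoplasmic reticulum, was also highest in EBF-/- cells, with 8.43 and 8.96 in RAG1-/-, 12.54 and 12.50 in EBF-/-, and 9.04 and 9.32 in E2A-/- cells.

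Bcl2, which blocks cell death, was low only in RAG1-/- cells. It read 9.64 and 10.74 there, 13.98 and 14.05 in EBF-/-, and 13.15 and 13.31 in E2A-/- cells, a 14.3-fold difference from EBF-/- cells (limma adjusted p = 0.00229), and its site at 17.5 kb overlapped H3K4me2 only in RAG1-/- cells. Reep1, which shapes the endoplasmic reticulum, fell likewise, from 9.83 and 9.76 in EBF-/- to 6.43 and 5.29 in RAG1-/- cells, and its site overlapped H3K4me1 and H3K4me2 only in RAG1-/- cells. Paqr5, a membrane progestin receptor, read 4.78 and 5.21 in RAG1-/- and 9.20 and 9.41 in EBF-/- cells (20-fold). The site at Paqr5, 6.22 kb away, lost H3K4me2 and gained H3K4me1 between the lists of EBF-/- and RAG1-/- cells. Adipoq, the gene of adiponectin, and LOC628062 were at least 5.27-fold and 7.73-fold lower in RAG1-/- than in EBF-/- cells.

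E2A-/- replicate 1 was more than 2-fold above E2A-/- replicate 2 in 14 of the 15 largest rises, and in 29 of the 172 higher genes (16.9%). The share was 8.3% of all 2614 genes higher in RAG1-/- than in EBF-/- cells, and 5.99% of all genes. These counts used 1 probe per gene. At the remaining rise, Tenm4, another probe read 7.25 in E2A-/- replicate 1 and 3.04 in replicate 2. In the 15 largest rises E2A-/- replicate 1 lay 3.39 to 6.68 below RAG1-/- replicate 1 of the same array on the log2 scale, with a median of 4.82. Whether signal or RNA passed between these samples was not tested. Since the fit pools the spread of all groups, this gap enters the errors of Vpreb3 and Igll1 in every comparison. Without E2A-/- replicate 1, all 30 genes that met the naming rule and were called in RAG1-/- against EBF-/- cells kept their call.

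As lists, the B-lineage genes were mostly higher in RAG1-/- cells, though most members of each list had no shared site within 100 kb. Over all genes 20.6% were higher and 23.3% lower, and 1510 of the 12671 had a shared site within 100 kb. Of 18 fitted genes known from the literature as EBF1 targets, 17 were higher and none lower than in EBF-/- cells, with a median of 7.57, and 8 had a shared site within 100 kb, among them Cd79a, Igll1, Vpreb1 and Vpreb3. All 8 were higher, with a median of 9.55. With dim probes at their bound the medians were 7.14 and 9.55. Foxo1 and Id3 were among the 8, and the peaks at their sites overlapped by only 42 and 17 bp. Of 18 genes of the pre-B receptor and its signalling, 11 were higher and 3 lower. A shared site was assigned to 6, of which 5 were higher and 0 lower. Of 23 factors of the B lineage, 15 were higher and 2 lower, and of 18 surface genes 13 were higher and none lower. None of 10 fitted V(D)J recombination genes had a shared site within 100 kb, too few genes to tell from the share over all genes. Of these 10 genes, 6 were higher, with a median of 0.92 over the list. These lists were drawn with earlier results known, and the medians were not tested against 0.03, the median over all genes.

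Markers of other cell types also moved between the cultures, where 23.3% of all genes were lower and 20.6% higher in RAG1-/- than in EBF-/- cells. Near shared sites (25 kb) lay 493 of all 12671 fitted genes. Of the fitted markers, 3 of 8 myeloid and 1 of 3 stromal markers (Pdgfrb) did so. None of the fitted markers of T cells (8), NK cells (9), erythroid cells (1) or progenitors (9) did. Of the myeloid markers 3 were lower in RAG1-/- than in EBF-/- cells and none higher, with summed levels (log2) of 12.19 and 15.61 in RAG1-/- and 15.41 and 15.42 in EBF-/- cells. Stromal markers summed to 15.14 and 15.29 against 16.14 and 15.95, with 2 lower. Of the NK markers 9 were lower (11.53 and 12.07 against 16.26 and 16.31), of the progenitor markers 8 (11.21 and 12.28 against 17.03 and 17.05), and of the T cell markers 5 lower and 1 higher (14.07 and 14.11 against 15.29 and 15.28). The single erythroid marker was not called. All 8 myeloid and all 3 stromal markers were well above background in both RAG1-/- samples, as were 6 of 8 T cell markers and 8 of 9 progenitor markers. In E2A-/- cells the summed levels were 16.63 and 16.71 for myeloid and 16.27 and 16.37 for stromal markers. In such mixed cultures, fewer cells of a type and less RNA per cell cannot be told apart, and the part of these cells in the results above was not tested.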

How the data were processed

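Per the file headers, Agilent Feature Extraction 9.5.3.1 read the 2-colour arrays and subtracted background and balanced the dyes before the authors deposited each spot's intensity. Each sample was read from its own channel and put on a log2 scale from the deposited intensity. Spots flagged as outliers were left out, the others were averaged per probe, and the probe values were quantile normalised. Probes that no group showed well above background in both its samples were dropped (20022 of 41174 remained), and the brightest named probe stood for its gene (12671 genes; names from RefSeq GRCm38.p6). limma 3.58.1 (R 4.3.3) fitted group and dye with array as a random block (correlation -0.044) and a trended prior, with Benjamini-Hochberg adjustment over all genes at 0.05. In simulated data it called 14 of 67 genes changed by 1 (log2), 34 of 67 by 2 and 58 of 66 by 4 in RAG1-/- against EBF-/-.

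The 24 peak lists are the authors', made with HOMER on mm8 per the submitters' processing notes. Each peak's score is the value in the deposited list, and peaks have 1 fixed width per list (200 bp for E2A, EBF1 and CTCF, 1000 bp for marks, 76 bp for FOXO1, 60 bp for input). Depth is unknown. Overlap meant 1 bp or more. Probe positions are mm8, per the file headers, and 84 probes on another chromosome than their gene were left out. Named genes were the 15 largest rises and 8 largest falls among called genes within 25 kb whose groups did not overlap, and list genes with a site within 100 kb; 1 gene that met this rule is not reported here. The members and lists were chosen with earlier results of these data known.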

Additional observations from a re-analysis of the deposited data

How the results depend on the processing

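The 653 shared sites became 602 when the E2A peak had to cover at least 50% of the EBF1 peak, 602 with centres within 100 bp, 681 with input peaks kept, 446 with EBF1 peaks at or above their median value and 507 with such E2A peaks. Counting peaks within 1 kb, H3K4me1 and H3K4me3 were in RAG1-/- cells at 92.8% and 99.2% of sites marked in 1 cell type, FOXO1 at 12.6% and CTCF at 19.4% of sites. With mark peaks at or above their median value, H3K4me3 stood at 61.5% and H3K9/14ac at 27.8%. Within 100 kb, 27.2% of genes were higher in RAG1-/- than in EBF-/- cells.

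Leaving out each array sample in turn, the genes near shared sites numbered 90 to 172 higher and 52 to 108 lower in RAG1-/- against EBF-/-, 134 to 188 and 56 to 122 in RAG1-/- against E2A-/-, and 13 to 120 and 15 to 106 in EBF-/- against E2A-/-. Over all genes the counts were 1074 to 2655 and 1287 to 3289, 1518 to 2948 and 1531 to 3395, and 251 to 2737 and 258 to 2481. The lowest counts of the first comparison came without 1 of the EBF-/- samples, and the lone sample left is then assumed to vary like the other groups. In each of these settings the share higher in RAG1-/- than in EBF-/- cells was larger near shared sites than over all genes.

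Without the filter on dim probes, EBF-/- against E2A-/- gave 1033 higher and 860 lower genes, and 34 lower near shared sites. No direction of a named gene turned. Under that setting 6 of the named genes (Vpreb3, Bst1, Cd22, Dlk1, Spib and Tcf3) lost their call in RAG1-/- against EBF-/-, as did LOC628062 without EBF-/- replicate 1 (-4.58). Normexp background, 75th percentile scaling, no dye term and no array block changed no call among them. Replicate numbers did not pair the samples (correlations of 0.164, -0.4 and 0.014), and with replicate as a block in place of dye, 175 genes near shared sites were higher and 94 lower in RAG1-/- against EBF-/- cells, 192 and 96 against E2A-/-, and 82 and 62 in EBF-/- against E2A-/-, with Pik3ap1 then called. Using every probe position, chosen after seeing the data, left 34.8% higher. Probes below background and single ChIP-seq libraries limit what small differences can show.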
